A study of Rattus norvegicus with 3 samples.

Results

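The MFH line MFH1NR was compared with the osteosarcoma line COS1NR, using the 2 of 3 arrays of the series that shared a slide and a scan. Every probe that is not a control was taken, and 40816 of 41012 probes remained on all arrays after spots called outliers were left out. Both lines were established from tumors that 4-HAQO, a quinoline carcinogen, had induced in F344 (Fischer 344) rats, and per the methods both carry a p53 mutation and both of those tumors were osteosarcomas. Each line is represented by RNA of cultured cells on 1 array, so the difference between the lines has no replicate check and was not tested. The array of bone marrow mesenchymal stem cells (MSCs) of the same strain lay on another slide and gives background levels beside some genes.

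Osteosarcoma is a malignant tumor whose cells lay down bone matrix, and the osteoblast genes of such matrix are usually taken as its lineage markers. Malignant fibrous histiocytoma (MFH) is an older name for undifferentiated pleomorphic sarcoma, a tumor of spindle-shaped and bizarre cells defined by the lack of a clear line of differentiation. Both are thought to arise from mesenchymal cells that can become bone, fat, cartilage or fibrous tissue, so genes of these fates and of the signals that steer them are given first.

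The values are processed intensities of a 1-colour array, background-subtracted within the array. Their 75th percentile was 994 in MFH1NR and 774 in COS1NR. Each array's own 75th percentile was therefore subtracted from its log2 intensities, which takes 0.36 off every raw log2 difference. Intensities are printed unscaled, and log2 differences (MFH1NR minus COS1NR) and folds are scaled. A probe was used if either array had it well above background by the software's call, and the lowest intensity so called was 30.1 in MFH1NR and 29.4 in COS1NR. Where the call failed on one array, the fold is a lower bound, with the dim array counted at its faintest called signal unless the probe itself read more than that. Repeated spots put the spread of a single-spot difference at 0.07 in log2, which covers neither cultures nor labeling. In 1941 genes with a pair of probes called on both arrays, the log2 differences of the pair were a median of 0.15 apart, with a 90th percentile of 0.60. Of 392 such genes whose brighter probe was at least 2-fold apart, the second probe pointed the same way in 98.0% and was itself at least 2-fold apart in 77.6%.

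Of 9425 genes used, 1170 were at least 2-fold higher in MFH1NR (12.4%) and 1418 were at least 2-fold higher in COS1NR (15.0%). The remaining 72.5% were less than 2-fold apart, and the median log2 difference of all genes was -0.08. Over the 25281 probes used, named or not, the shares were 12.1% and 14.4%. The gene shares of 12.4% and 15.0% are the baseline for the counts of each list below. Changes beyond 8-fold were counted in 279 genes for MFH1NR and 321 for COS1NR, and changes beyond 32-fold in 89 and 130. A total of 681 genes were well above background in MFH1NR only and 556 in COS1NR only. The balance of directions rests on the scaling. Higher genes in MFH1NR made up 45.2% of all calls as reported, 66.2% without scaling and 75.8% when 9 spike-in probes were set equal. The median of all genes was 0.27 without scaling and 0.49 with the spike-ins. Of 58 gene lists with a median, the median changed sign in 17 without scaling and in 21 with the spike-ins, and in each of these it was between -0.49 and -0.03 as reported. Across genes the log2 intensities of the lines had a Pearson correlation of 0.83 and a Spearman correlation of 0.87, which describe genes and not replicates.

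**Figure D1:**
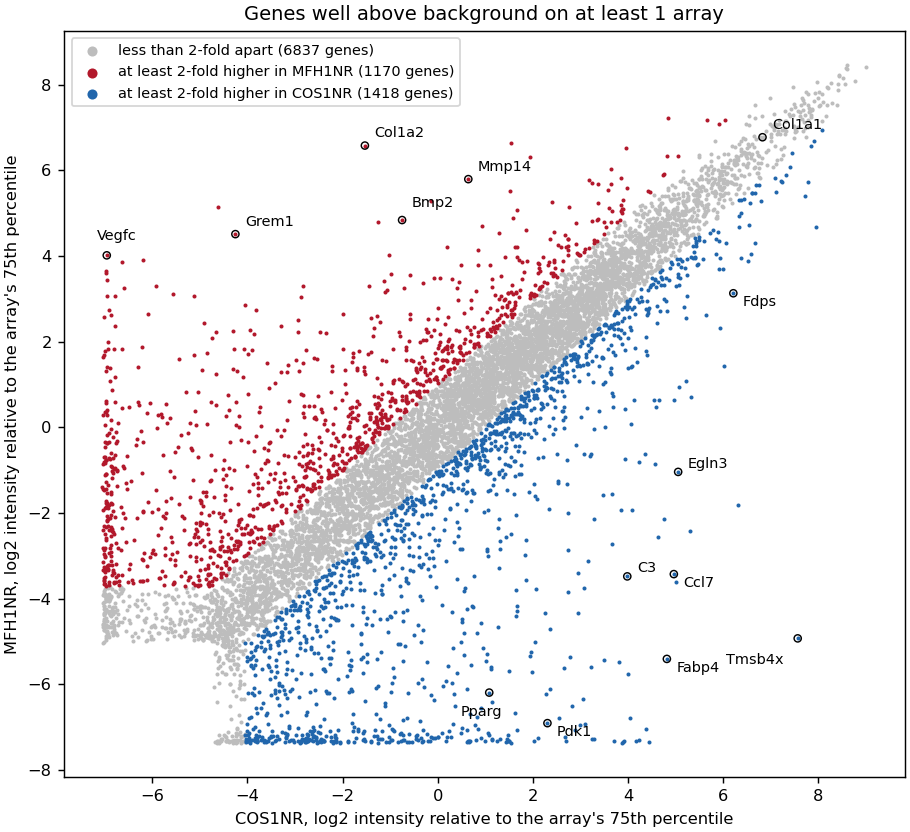
Scaled log2 intensity of each gene well above background on at least 1 array, COS1NR on the horizontal and MFH1NR on the vertical axis (0 is the 75th percentile of the array). Red and blue points are the 1170 and 1418 genes at least 2-fold apart, and the bands at the left and lower edges are genes near background on one array, such as Vegfc in COS1NR and Pdk1 in MFH1NR.

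The largest measured difference in favor of MFH1NR was that of Grem1, a secreted antagonist of bone morphogenetic proteins (BMPs), with intensities of 22652 in MFH1NR and 40.6 in COS1NR, a log2 difference of 8.76. Col1a2, the second chain of type I collagen, followed with 94925 in MFH1NR and 268 in COS1NR, a log2 difference of 8.11. A second probe of each gene was also far higher in MFH1NR, with a log2 difference of 8.01 for Col1a2 and a bound of 6.14 for Grem1. MSCs held 53526 for Grem1 and 110949 for Col1a2, so the low levels were those of COS1NR. Ctsk, the collagen-cleaving protease cathepsin K, had 7209 in MFH1NR and 47.0 in COS1NR. Mmp2, the gelatinase of connective tissue, had 27716 in MFH1NR and 323 in COS1NR. Srpx2, a secreted matrix-associated protein, had 9790.2 in MFH1NR and 108 in COS1NR. These 5 products of mesenchymal cells were bright in MFH1NR and in MSCs and dim in COS1NR. Casp1, the inflammasome protease, had 8154 in MFH1NR and 106 in COS1NR. The other 6 of the 12 largest were MGC116197, Npdc1, Reep2, Snrpn, Atat1 and Orai2, with log2 differences between 5.90 and 6.55. Snrpn is an imprinted gene of the splicing machinery, Atat1 acetylates tubulin and Orai2 forms calcium channels. For Orai2, a dimmer second probe gave a bound of only 1.48, and all 7 probes of MGC116197 were at least 8-fold higher in MFH1NR.

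In the other direction the largest measured difference was that of G0s2, an inhibitor of the fat-cleaving lipase of adipocytes, with 80.8 in MFH1NR and 24741 in COS1NR, a log2 difference of -8.62. Ccl7, a chemokine that attracts monocytes, had 92.5 in MFH1NR and 24113 in COS1NR, and its second probe gave a log2 difference of -8.57 beside -8.39. Rbp4, the carrier of retinol that fat and liver secrete, had 285 in MFH1NR and 61505 in COS1NR. C3, the central component of complement, had 89.2 in MFH1NR and 12240 in COS1NR, and its intensity in MSCs was 114. Wfdc21 had 186 in MFH1NR and 30661 in COS1NR. Nbl1, an antagonist of BMPs of the DAN family, had 74.1 in MFH1NR and 6533 in COS1NR. Enpep, a surface aminopeptidase that cleaves angiotensin, had 169 in MFH1NR and 19035 in COS1NR. The other 5 of the 12 were Pon2, Ampd3, Acot9, B4galt6 and Bex1, with log2 differences between -7.29 and -6.57. The second probes of Enpep, Pon2 and B4galt6 were likewise higher in COS1NR, with bounds of -6.97, -6.87 and -5.34.

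Some genes were well above background in a single line. Vegfc, the growth factor of lymphatic vessels, had an intensity of 16071 in MFH1NR and 6.23 in COS1NR, at least 426-fold higher. Fcrla, an Fc receptor-like protein known from B cells, had 35084 in MFH1NR and 31.7 in COS1NR, at least 862-fold higher in MFH1NR. Cyba, a subunit of the superoxide-producing NADPH oxidases, had 12148 in MFH1NR and 6.16 in COS1NR, at least 322-fold higher in MFH1NR. The other 5 of the 8 largest bounds for MFH1NR were those of Crip1, Tm7sf3, Hspb3, Aga and Arhgap9, between 259-fold and 393-fold, with a log2 of 6.38 at the second probe of Arhgap9. Tmsb4x, the actin-sequestering thymosin beta 4, had 32.7 in MFH1NR and 146532 in COS1NR on the arrays, a bound of at least 5757-fold in favor of COS1NR and the largest bound of all genes. Its level in MSCs was 231219, so MFH1NR was the low one of the 3 arrays. Fabp4, the fatty acid carrier of adipocytes, had 23.5 in MFH1NR and 21786 in COS1NR, at least 931-fold higher in COS1NR. Il1rn, the secreted antagonist of the interleukin-1 receptor, had 18.4 in MFH1NR and 12434 in COS1NR, at least 531-fold higher, but its second probe gave a bound of only -2.39 in log2. Prdx4, a peroxidase of the secretory pathway, had 6.29 in MFH1NR and 14605 in COS1NR, at least 624-fold higher. The other 4 of the 8 for COS1NR were Ntpcr, Mid1ip1, Sncg and Pard3, between 543-fold and 715-fold, with a log2 of -8.16 at the second probe of Mid1ip1.

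The labelled cell types were checked against lineage markers. Of 29 osteoblast genes, 26 had a named probe and 17 were used. Of these, 9 were at least 2-fold higher in MFH1NR and 4 in COS1NR, beside 12.4% and 15.0% of all genes, and their median log2 difference was 1.05. Sp7, the osteoblast transcription factor osterix, had 108 in MFH1NR and 6.34 in COS1NR, at least 2.86-fold higher in MFH1NR. Dlx5, a homeobox regulator of osteoblasts, had 95.3 in MFH1NR and 6.11 in COS1NR, at least 2.52-fold higher in MFH1NR. Alpl, the phosphatase needed for mineralization, had 2617 in MFH1NR and 986 in COS1NR, a log2 difference of 1.05. Spp1, the matrix protein osteopontin, had 149222 in MFH1NR and 22285 in COS1NR, a log2 difference of 2.38. COS1NR was thus the lower line for each of these 4, and Sp7 and Dlx5 were not well above background in it. The matrix proteins Ibsp and Mepe went the other way. Ibsp, bone sialoprotein, had 51.7 in MFH1NR and 491 in COS1NR, a log2 difference of -3.61. Mepe, a phosphoglycoprotein of osteocytes, had 1617 in MFH1NR and 31057 in COS1NR, a log2 difference of -4.63. Bglap, the bone hormone osteocalcin, was close to background in both, with 69.5 in MFH1NR and 50.5 in COS1NR. The osteocyte genes Dmp1, Phex and Sost were not well above background on either array, and Runx2 was among the genes without a named probe. The line labelled osteosarcoma was thus the lower of the pair for most of the osteoblast genes that differed, although the median over all 26 genes, without the filter on dim probes, was -0.15.

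Most adipocyte genes used were higher in COS1NR. Of 16 such genes 13 were used, and 10 were at least 2-fold higher in COS1NR (76.9%) and none in MFH1NR. The shares of all genes were 15.0% and 12.4%, and the list's median log2 difference was -3.51. With the spike-ins the list's counts were 8 and 1. Pparg, the master regulator of fat cell formation, had 13.6 in MFH1NR and 1638 in COS1NR, at least 70.0-fold higher in COS1NR. Lpl, lipoprotein lipase, had 7.39 in MFH1NR and 5714 in COS1NR, at least 244-fold higher, with a log2 of -6.61 at its second probe. Cd36, a fatty acid uptake receptor, had 22.2 in MFH1NR and 665 in COS1NR, at least 28.4-fold higher. Cidec, a lipid droplet protein, had 6.90 in MFH1NR and 467 in COS1NR, at least 20-fold higher. Dgat2, which makes triglycerides, had 1342 in MFH1NR and 11885 in COS1NR, a log2 difference of -3.51. Retn, the adipokine resistin, had 55 in MFH1NR and 2446 in COS1NR, a log2 difference of -5.84. Of these 6 genes, the first 4 were not well above background in MFH1NR, while Dgat2 and Retn were measured in both lines. Over the 6 genes of the list called on both arrays, the median was -1.52. The set was incomplete, since Adipoq and Lep were not well above background in either line and Cebpa differed by only -0.63. MSCs held 174 for Pparg and 456 for Lpl, between the lines.

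Fibroblast genes were more often higher in MFH1NR, with 8 of 14 used at least 2-fold higher there, 2 in COS1NR and a median of 1.52. That median was 0.74 over all 17 genes without the filter, and 0.34 over 5 genes by their second brightest probe. Pdgfra, the platelet-derived growth factor receptor of fibroblasts, had 10693 in MFH1NR and 353 in COS1NR, a log2 difference of 4.56. Thy1, the surface antigen CD90, had 2632 in MFH1NR and 6.29 in COS1NR, at least 69.7-fold higher in MFH1NR. Fap, a surface protease of activated fibroblasts, had 271 in MFH1NR and 6.09 in COS1NR, at least 7.19-fold higher. Lum, a small proteoglycan that organizes collagen, had 27085 in MFH1NR and 5825 in COS1NR, a log2 difference of 1.86. The exceptions were Dcn and S100a4. Dcn, the proteoglycan decorin, had 20.4 in MFH1NR and 4845 in COS1NR, at least 207-fold higher in COS1NR. S100a4 had 52317 in MFH1NR and 170180.5 in COS1NR, a log2 difference of -2.06. Vim, the mesenchymal intermediate filament vimentin, and Fn1, fibronectin, differed by 0.11 and -0.01 and were bright in both lines.

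Markers of endothelium, epithelium and lymphocytes were mostly at background. Of 9 endothelial genes with a named probe 3 were used, of 12 epithelial genes 4, of 9 T cell genes 2 and of 3 B cell genes 1. Epcam and Cdh1 of epithelium, Pecam1 of endothelium and Cd3e of T cells were not well above background on either array. Of 20 macrophage genes 9 were used, 1 was at least 2-fold higher in MFH1NR (11.1%) and 3 in COS1NR (33.3%), beside 12.4% and 15.0% of all genes. Cd68, a lysosomal protein of macrophages, had 956 in MFH1NR and 3135 in COS1NR, and Laptm5 had 539 in MFH1NR and 2605 in COS1NR. Aif1 had 8.27 in MFH1NR and 221 in COS1NR, at least 9.45-fold higher in COS1NR. The defining genes Ptprc, Cd163, Spi1, Itgam and Lyz2 were below background in both lines, while MSCs held 32304 for Lyz2. Muscle, cartilage and nerve lists were called more often than those, beside 9425 used of all 13301 named genes. Of 13 chondrocyte genes with a named probe 9 were used, of 15 skeletal muscle genes 8 and of 12 Schwann and neural genes 9. They were at least 2-fold higher in MFH1NR in 1, 3 and 3 genes (11.1%, 37.5% and 33.3%), and in COS1NR in 1 gene of each list (11.1%, 12.5% and 11.1%), where the shares of all genes were 12.4% and 15.0%. Of 17 smooth muscle genes with a named probe 11 were used, 4 at least 2-fold higher in MFH1NR and 2 in COS1NR, or 7 and 2 with the spike-ins. Tagln had 136 in MFH1NR and 6.0 in COS1NR against 78247 in MSCs. What these markers contribute to the other differences was not tested. The neurofilament gene Nefh, of the intermediate filament list, had 4223 in MFH1NR and 28.8 in COS1NR, at least 112-fold higher in MFH1NR.

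**Figure D2:**
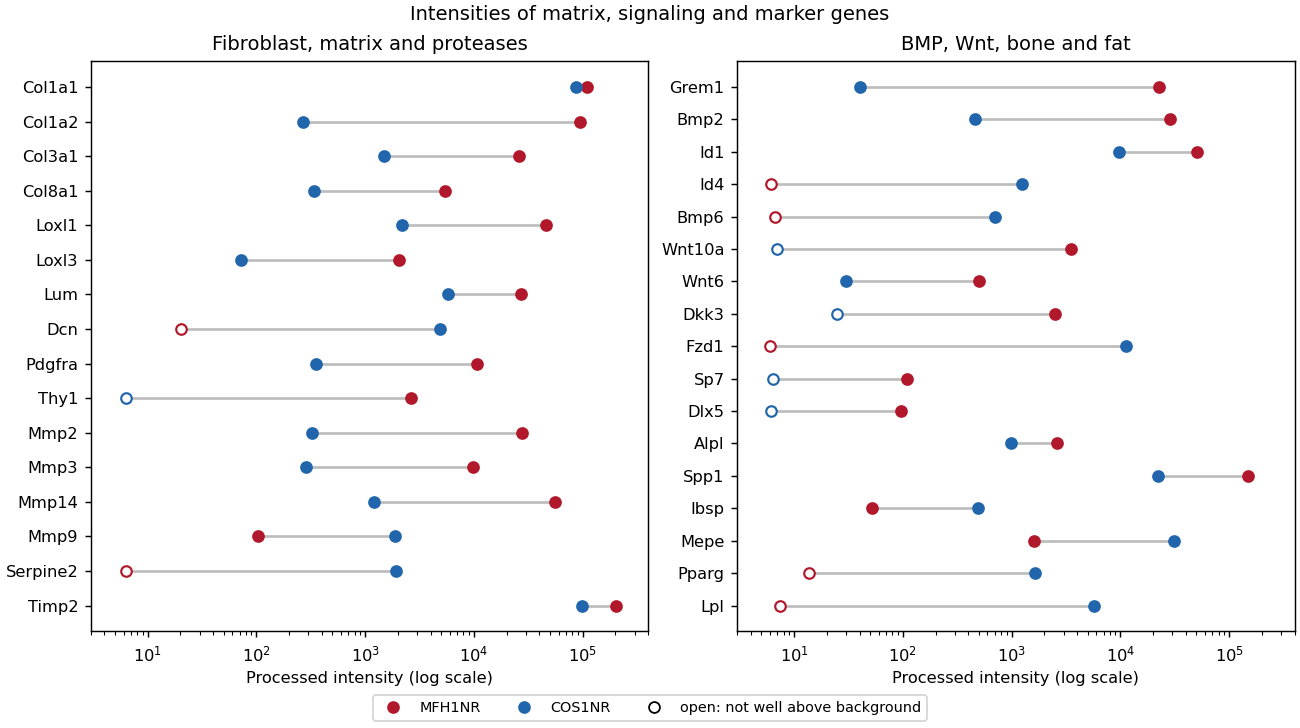
Processed intensity (log axis, not scaled between arrays) of matrix genes, signaling genes and lineage markers in MFH1NR (red) and COS1NR (blue), 1 array each, with open circles where the probe was not well above background. Col1a1 is at 108611 and 87747 while Col1a2 is at 268 in COS1NR, and Pparg, Lpl, Fzd1 and Dcn are open in MFH1NR.

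Collagens and their processing enzymes were split gene by gene. Of 20 genes used, 7 were at least 2-fold higher in MFH1NR (35%) and 4 in COS1NR (20%), beside 12.4% and 15.0% of all genes. Their median was 0.13, and their counts were 7 and 2 with the spike-ins. Col1a1, the first chain of type I collagen, had 108611 in MFH1NR and 87747 in COS1NR, a log2 difference of only -0.05. For the partner chain Col1a2 the difference was 8.11, so the lines were alike in one chain of this collagen and far apart in the other. Col3a1, the chain of type III collagen, had 25824 in MFH1NR and 1484 in COS1NR, a log2 difference of 3.76. Col8a1, a network collagen, had 5432 in MFH1NR and 335 in COS1NR, a log2 difference of 3.66. Loxl1 and Loxl3, enzymes that crosslink collagen and elastin, had log2 differences of 4.02 and 4.44. Plod2, which hydroxylates the lysines used in crosslinks, was the reverse, with 6.14 in MFH1NR and 378 in COS1NR, at least 16.1-fold higher in COS1NR, with a log2 of -2.33 at its second probe. Of 14 matricellular proteins used, 7 were at least 2-fold higher in MFH1NR (50%) and 2 in COS1NR (14.3%), or 9 and 1 with the spike-ins. Their median was 1.01, and it changed sign by the second brightest probe, as given further below. Ccn2, connective tissue growth factor, had 11842 in MFH1NR and 389.6 in COS1NR, a log2 difference of 4.56. Fbln5, which assembles elastic fibers, had 1436 in MFH1NR and 9.94 in COS1NR, at least 38.0-fold higher in MFH1NR. Tgfbi, a protein induced by TGF-beta, had 20.7 in MFH1NR and 7226 in COS1NR, at least 309-fold higher in COS1NR, with a log2 of -2.77 at its second probe. Col18a1 of basement membranes was higher in COS1NR too, with a log2 difference of -6.39.

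Of 25 metalloproteinases, serine proteases and inhibitors used, 11 were at least 2-fold higher in MFH1NR and 7 in COS1NR, or 14 and 4 both without scaling and with the spike-ins. Mmp14, the membrane-bound enzyme that activates pro-MMP2, had 55144 in MFH1NR and 1208 in COS1NR, a log2 difference of 5.15. Its substrate Mmp2 had a log2 difference of 6.06. Mmp3, stromelysin, had 9802 in MFH1NR and 284 in COS1NR, a log2 difference of 4.75. Timp4, an inhibitor, had 421 in MFH1NR and 8.90 in COS1NR, at least 11.1-fold higher in MFH1NR, with a log2 of 2.15 at its second probe. In COS1NR the gelatinase Mmp9 was the higher, with 102 in MFH1NR and 1892 in COS1NR, a log2 difference of -4.57. Serpine2, an inhibitor of plasminogen activators, had 6.38 in MFH1NR and 1929.9 in COS1NR, at least 82.5-fold higher in COS1NR, with a log2 of -3.38 at its second probe. Of 9 integrins used, 5 were at least 2-fold higher in COS1NR and 1 in MFH1NR, or 5 and 2 with the spike-ins. Itgb1, the shared beta chain of most matrix receptors, had 6090.3 in MFH1NR and 16415 in COS1NR, a log2 difference of -1.79. Itga7, a laminin receptor chain, had 115 in MFH1NR and 871 in COS1NR, a log2 difference of -3.29 and of -1.13 at its second probe. The one integrin at least 2-fold higher in MFH1NR was Itgb4, a laminin receptor chain of hemidesmosomes. It had 13861 in MFH1NR and 3359 in COS1NR, a log2 difference of 1.68.

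In the BMP pathway, secreted ligands bind surface receptors and switch on Smad proteins, which raise Id genes and the pathway's own inhibitors. Of 23 genes used, 9 were at least 2-fold higher in MFH1NR and 5 in COS1NR, with a median of 0.71 that was close to 0, at -0.0084, over all 32 genes without the filter on dim probes. With the spike-ins these counts were 14 and 5. Among ligands, Bmp2 had 28449 in MFH1NR and 460.2 in COS1NR, a log2 difference of 5.59, and its second probe gave 5.45. Bmp6 was the reverse, with 6.64 in MFH1NR and 706 in COS1NR, at least 30.2-fold higher in COS1NR. The receptor gene Bmpr1a differed by 0.88. Among target genes, Id1 had 50908 in MFH1NR and 9702 in COS1NR, a log2 difference of 2.03, and Id2 a log2 difference of 1.59. Smad6, an inhibitory Smad, had 2340.1 in MFH1NR and 269.9 in COS1NR, a log2 difference of 2.75. Bambi, a decoy receptor, had 13682 in MFH1NR and 1088 in COS1NR, a log2 difference of 3.29. Bmp2 and these targets were the higher in MFH1NR together with the antagonist Grem1. Id4 stood apart from the other Id genes, with 6.18 in MFH1NR and 1233 in COS1NR, at least 52.7-fold higher in COS1NR, with a log2 of -3.33 at its second probe. Fst, follistatin, which binds activins, had a log2 difference of -1.79. In the TGF-beta list, 4 of 19 genes used were at least 2-fold higher in MFH1NR (21.1%) and 5 in COS1NR (26.3%), beside 12.4% and 15.0% of all genes, and the balance turned to 6 and 4 without scaling and 7 and 3 with the spike-ins. Ltbp4, which stores latent TGF-beta in the matrix, had 1499 in MFH1NR and 28.5 in COS1NR, at least 39.7-fold higher in MFH1NR.

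Of 35 Wnt pathway genes used, 13 were at least 2-fold higher in MFH1NR (37.1%) and 3 in COS1NR (8.57%). The shares of all genes were 12.4% and 15.0%, and with the spike-ins the list's counts were 19 and 2. The list's median was 0.56, or 0.41 over the 22 genes called on both arrays and 0.27 over all 45 without the filter. Among ligands, Wnt10a had 3549 in MFH1NR and 6.91 in COS1NR, at least 94.0-fold higher in MFH1NR with a log2 of 3.67 at its second probe, and 5.13 in MSCs. Wnt6 had 497 in MFH1NR and 30.1 in COS1NR, a log2 difference of 3.68, and Wnt10b and Wnt11 were at least 7.65-fold and 5.10-fold higher. Wnt5a, a ligand of the non-canonical branch, had a log2 difference of 1.42. All 5 ligands at least 2-fold apart were the higher in MFH1NR, but Wnt10a, Wnt10b and Wnt11 were called there only. Their bounds could point no other way, and Wnt6 in COS1NR was near the lowest called intensity of 29.4. Receptors were divided, since Fzd1 had 6.04 in MFH1NR and 11331 in COS1NR, at least 484-fold higher in COS1NR, while Fzd2 had a log2 difference of 1.1. Secreted antagonists were divided too. Dkk3 had 2503 in MFH1NR and 24.8 in COS1NR, at least 66.3-fold higher in MFH1NR, and Sfrp4 had 1297 in MFH1NR and 22.4 in COS1NR, at least 34.3-fold higher in MFH1NR. The second probes of Sfrp4 and Sfrp2 gave a log2 of 4.31 and -3.71. Sfrp2 had 6.68 in MFH1NR and 777 in COS1NR, at least 33.2-fold higher in COS1NR. Inside the cell, Ctnnb1, the signal carrier beta-catenin, had a log2 difference of 1.1, and Axin2, a widely used target gene, had 128 in MFH1NR and 16.1 in COS1NR, at least 3.39-fold higher in MFH1NR. Ccnd1, another target, was the higher in COS1NR with a log2 difference of -1.18. Of 11 Hedgehog genes used, only Gli2 was at least 2-fold apart (9.09%), beside 15.0% of all genes in COS1NR and 12.4% in MFH1NR. Gli2 had 79.7 in MFH1NR and 505 in COS1NR, a log2 difference of -3.03. Ptch1 differed by -0.34 and by -1.71 at its second probe. Besides that 1 gene in COS1NR, 2 Hedgehog genes were at least 2-fold higher in MFH1NR without scaling and 3 with the spike-ins. Of 14 Notch pathway genes used, 4 were at least 2-fold higher in MFH1NR (28.6%) and 2 in COS1NR (14.3%). The share in COS1NR was near the 15.0% of all genes, and that of all genes in MFH1NR was 12.4%. The list's median of -0.20 became 0.38 with the spike-ins. The log2 differences of the Notch genes ran from -1.93 to the 2.82 of Jag1, a ligand.

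Transcription factors that fix position in the embryo differed in both directions. Of 16 homeobox, Pax and T-box genes used outside the Hox clusters, 9 were at least 2-fold higher in COS1NR and 3 in MFH1NR, with a median of -1.73. Over the 5 of them with a second probe, that probe gave a median of 0.23, and the median over all 26 genes without the filter was -0.36. Tbx3 had 6.46 in MFH1NR and 2135 in COS1NR, and Tbx18 had 6.06 in MFH1NR and 2243 in COS1NR. These T-box genes of limb and mesoderm were at least 91.2-fold and 95.8-fold higher in COS1NR, with a log2 of -3.60 at the second probe of Tbx18. Alx1, a regulator of facial mesenchyme, had 84.3 in MFH1NR and 2808 in COS1NR, a log2 difference of -5.42. Emx2, a regulator of brain and urogenital development, was the reverse, with 3196 in MFH1NR and 6.0 in COS1NR, at least 84.7-fold higher in MFH1NR, with a log2 of 2.27 at its second probe. MSCs held 5284 for Tbx3 and 2467 for Tbx18 but only 6.63 for Alx1. Of 9 Hox genes used, 3 were at least 2-fold higher in each line, or 4 in MFH1NR and 2 in COS1NR with the spike-ins. The 5'-most genes Hoxb13 and Hoxd13 were well above background in COS1NR only, with bounds of 26.5-fold and 7.53-fold. Hoxa2, at the other end of its cluster, had 1065 in MFH1NR and 14.9 in COS1NR, at least 28.2-fold higher in MFH1NR. Among factors of the mesenchymal transition, Snai2 had 1424 in MFH1NR and 30.5 in COS1NR, a log2 difference of 5.19, while Twist1 and Snai1 differed by -0.45 and -0.80.

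Cells make cholesterol from acetyl-CoA by a chain of enzymes that the transcription factors SREBP1 and SREBP2 switch on together when sterols run low. Promoters of these enzymes often hold a CCAAT box beside the SREBP site. The windows of 3 enzymes of the chain and of the regulator Insig1 are shown because most genes of the list were higher in the same line. They are RefSeq promoters of the GRCr8 assembly, from 250 bases before to 50 bases after the start, with CCAAT or its complement ATTGG in capitals.
Fdps, chr2:176804767-176805066, minus strand: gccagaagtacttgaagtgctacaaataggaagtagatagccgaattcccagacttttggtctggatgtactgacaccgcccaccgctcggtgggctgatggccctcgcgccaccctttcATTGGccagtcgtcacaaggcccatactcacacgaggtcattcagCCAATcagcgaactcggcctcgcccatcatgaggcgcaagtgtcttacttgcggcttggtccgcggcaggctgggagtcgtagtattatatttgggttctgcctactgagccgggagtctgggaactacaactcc
Msmo1, chr16:29746863-29747162, plus strand: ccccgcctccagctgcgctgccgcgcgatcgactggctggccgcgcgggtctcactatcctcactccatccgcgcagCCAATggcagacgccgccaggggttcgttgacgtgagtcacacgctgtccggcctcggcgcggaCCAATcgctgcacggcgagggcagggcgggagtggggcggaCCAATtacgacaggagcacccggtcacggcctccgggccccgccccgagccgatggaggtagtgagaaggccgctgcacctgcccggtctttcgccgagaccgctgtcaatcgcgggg
Hmgcs1, chr2:53382054-53382353, plus strand: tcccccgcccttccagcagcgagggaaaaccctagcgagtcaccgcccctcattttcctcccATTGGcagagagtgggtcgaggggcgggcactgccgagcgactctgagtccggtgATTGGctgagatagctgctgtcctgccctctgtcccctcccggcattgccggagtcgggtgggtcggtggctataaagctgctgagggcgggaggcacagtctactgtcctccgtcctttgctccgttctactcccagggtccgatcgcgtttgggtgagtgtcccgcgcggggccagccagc
Insig1, chr4:8057720-8058019, minus strand: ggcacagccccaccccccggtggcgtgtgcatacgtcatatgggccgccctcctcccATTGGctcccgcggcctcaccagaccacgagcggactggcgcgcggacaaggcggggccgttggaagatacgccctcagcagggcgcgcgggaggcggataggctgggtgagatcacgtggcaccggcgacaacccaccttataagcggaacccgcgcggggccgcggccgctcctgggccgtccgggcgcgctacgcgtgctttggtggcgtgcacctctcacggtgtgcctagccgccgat
Of 29 cholesterol and fatty acid genes used, 20 were at least 2-fold higher in COS1NR and none in MFH1NR, with a median log2 difference of -1.53. A promoter was listed for 13 of the 20, and 11 of these held CCAAT on either strand, as did 37.7% of 27457 promoters of all genes and 38.7% of those of the genes used. This is a description of letters, and 4 of 6 members less than 2-fold apart with a promoter held it too.

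Nearly every step of the chain was included. At its entry Hmgcs1, the synthase, had 8372 in MFH1NR and 29086 in COS1NR, a log2 difference of -2.16. Fdps, which makes farnesyl diphosphate, had 8701 in MFH1NR and 57374 in COS1NR, a log2 difference of -3.08. Sqle, which forms the epoxide of squalene, had 1549 in MFH1NR and 13454 in COS1NR, a log2 difference of -3.48. Msmo1, which removes methyl groups from sterols, had 19612 in MFH1NR and 78618 in COS1NR, a log2 difference of -2.37. All 4 enzymes were brighter in COS1NR, where Sqle and Fdps also exceeded the 1899 and 19322 of the MSC array. The regulators were divided. Insig1, which holds SREBPs back in the endoplasmic reticulum and is itself a target, had a log2 difference of -2.67, and Srebf2 had one of -1.55 at intensities of 76.7 in MFH1NR and 174 in COS1NR. Scap, which escorts SREBPs to the Golgi, had a log2 difference of 0.75. Stard4, a sterol carrier, had 20.9 in MFH1NR and 904 in COS1NR, at least 38.6-fold higher in COS1NR. The fatty acid branch was not part of this, since Fasn, Acly and Acaca had log2 differences of 0.92, 0.41 and 0.03. The 20 genes lay on 14 chromosomes, and the list's median was -1.24 after the median of each gene's chromosome was subtracted.

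Low oxygen stabilizes the factors HIF1 and HIF2, which bind promoters at the core letters ACGTG and switch on glycolysis. Of 28 glycolysis and hypoxia genes used, 17 were at least 2-fold higher in COS1NR and 1 in MFH1NR, with a median of -1.06. Windows of 4 of the 17 are shown with ACGTG or its complement CACGT in capitals, and the letters CACGTG count as a match on each strand. Each of these 4 holds at least 2 matches, so they are not typical of the 17, and Egln3 and Adm, for example, held 0.
Pdk1, chr3:77113264-77113563, plus strand: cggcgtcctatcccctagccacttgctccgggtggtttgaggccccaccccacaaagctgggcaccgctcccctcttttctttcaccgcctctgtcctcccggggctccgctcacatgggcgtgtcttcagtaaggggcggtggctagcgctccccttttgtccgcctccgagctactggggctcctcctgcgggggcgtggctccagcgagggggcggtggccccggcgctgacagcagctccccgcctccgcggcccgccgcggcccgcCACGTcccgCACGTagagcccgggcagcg
Bnip3, chr1:203154913-203155212, minus strand: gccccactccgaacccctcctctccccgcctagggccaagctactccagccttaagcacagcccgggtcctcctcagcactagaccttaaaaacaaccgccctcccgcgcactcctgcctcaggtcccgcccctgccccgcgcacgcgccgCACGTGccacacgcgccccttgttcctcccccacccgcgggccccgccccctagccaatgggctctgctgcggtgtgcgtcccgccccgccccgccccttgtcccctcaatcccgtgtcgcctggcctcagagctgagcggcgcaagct
Ldha, chr1:106507842-106508141, plus strand: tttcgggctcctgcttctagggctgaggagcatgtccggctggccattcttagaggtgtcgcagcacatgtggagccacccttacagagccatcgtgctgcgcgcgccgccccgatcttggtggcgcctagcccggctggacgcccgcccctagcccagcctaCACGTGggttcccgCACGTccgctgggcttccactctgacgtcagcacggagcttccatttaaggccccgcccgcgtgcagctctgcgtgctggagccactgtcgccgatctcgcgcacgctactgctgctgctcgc
Ankrd37, chr16:53001257-53001556, plus strand: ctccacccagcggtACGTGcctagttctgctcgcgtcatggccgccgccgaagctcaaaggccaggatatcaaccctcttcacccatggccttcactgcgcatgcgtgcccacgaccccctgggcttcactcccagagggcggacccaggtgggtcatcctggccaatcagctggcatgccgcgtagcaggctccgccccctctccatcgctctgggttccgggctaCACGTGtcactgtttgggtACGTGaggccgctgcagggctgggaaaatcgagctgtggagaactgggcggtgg
Of 15 of the 17 with a listed promoter, 7 held these letters, as did 19.7% of all promoters and 25.7% of those of the genes used, and 5 of 10 other members of the list held them too.

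Members of the hypoxia list differed widely in size. Pdk1, a kinase that inhibits pyruvate dehydrogenase in mitochondria, had 8.30 in MFH1NR and 3824 in COS1NR, at least 163-fold higher in COS1NR. Egln3, an oxygen sensor that is also a HIF target, had 484 in MFH1NR and 25679.9 in COS1NR, a log2 difference of -6.09. Adm, the vasoactive peptide adrenomedullin, had 1555 in MFH1NR and 19557 in COS1NR, a log2 difference of -4.01. Bnip3, a mitophagy receptor, had 4279.9 in MFH1NR and 16053 in COS1NR, a log2 difference of -2.27. Aldoc, an aldolase isoform, had 15.8 in MFH1NR and 948 in COS1NR, at least 40.5-fold higher. Among enzymes of the main line, Gpi, Pgk1, Ldha and Pkm had log2 differences of -1.80, -1.46, -1.41 and -1.07, and Gapdh, Pgam1 and Eno1 of -0.94, -0.66 and -0.27. The glucose carriers were opposed. Slc2a1 had 3347 in MFH1NR and 9928 in COS1NR, a log2 difference of -1.93, while Slc2a3 had 499 in MFH1NR and 7.24 in COS1NR, at least 13.2-fold higher in MFH1NR. The genes of the HIF factors were not on the list and were looked up after the values were seen. Hif1a had 14586 in MFH1NR and 71341 in COS1NR, a log2 difference of -2.65, and its second probe gave -2.70. Epas1, which encodes HIF2 alpha, had 6.26 in MFH1NR and 451 in COS1NR, at least 19.3-fold higher in COS1NR. Car9, a HIF target often used as a hypoxia marker, differed by only -0.49. Of 47 oxidative phosphorylation genes used, none was at least 2-fold higher in MFH1NR and 5 were in COS1NR (10.6%), beside 12.4% and 15.0% of all genes. The direction turned with the scaling, to 2 in MFH1NR and 0 in COS1NR without scaling and 3 and 0 with the spike-ins. The median of -0.33 became 0.24 with the spike-ins. With the spike-in scaling, the hypoxia median was -0.49 and the cholesterol median -0.95, both still toward COS1NR, and the genes at least 2-fold higher there numbered 9 of 28 and 12 of 29. Under that scaling 2 hypoxia genes and 3 cholesterol genes were at least 2-fold higher in MFH1NR, and so they were without scaling.

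**Figure D3:**
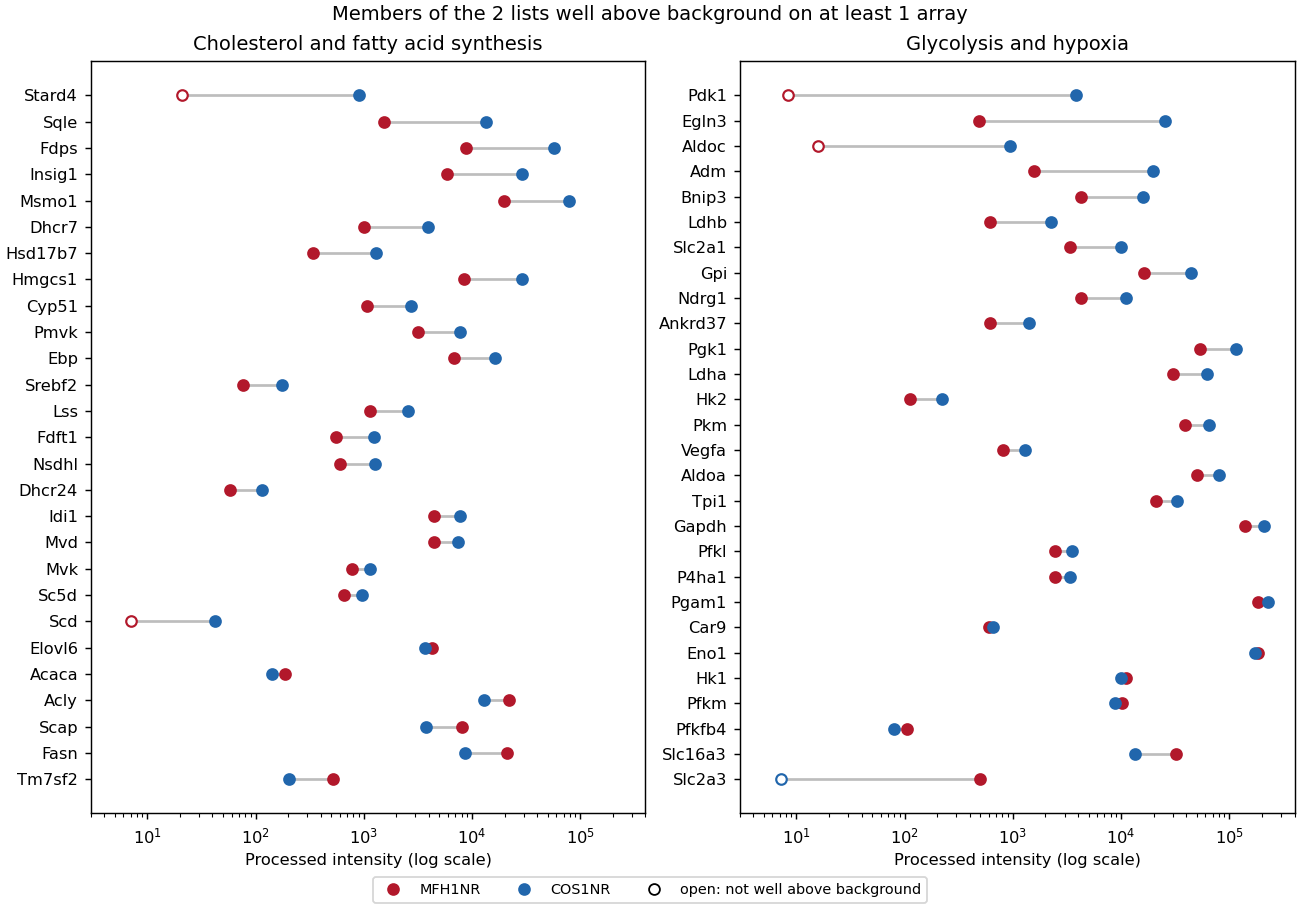
Processed intensity (log axis, not scaled between arrays) of 27 of the 29 cholesterol and fatty acid genes used and of the 28 glycolysis and hypoxia genes used, MFH1NR in red and COS1NR in blue, ordered by log2 difference with open circles where not well above background. COS1NR lies to the right for nearly all genes down to the fatty acid enzymes at the foot of the left panel, and Slc2a3 is the widest gap the other way.

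Many chemokines used were higher in COS1NR. Of 19 chemokines and receptors used, 10 were at least 2-fold higher in COS1NR and 2 in MFH1NR, with a median of -1.54, or -0.38 over all 39 genes without the filter on dim probes. Ccl20, a ligand for dendritic cells and lymphocytes, had 136 in MFH1NR and 5194 in COS1NR, a log2 difference of -5.61. Ccl2 had 15437 in MFH1NR and 64189 in COS1NR, a log2 difference of -2.42, and Ccl7 is given above. Cxcl1, a neutrophil attractant, had 42101 in MFH1NR and 164118 in COS1NR, a log2 difference of -2.32. Ccl22 had 28.2 in MFH1NR and 959 in COS1NR, at least 41.0-fold higher in COS1NR, with a log2 of -2.39 at its second probe. These 5 ligands were thus brighter in COS1NR, while most receptors were at background in both lines. Il18, a cytokine that is on no list, was the reverse, with 1193 in MFH1NR and 42.8 in COS1NR, a log2 difference of 4.44. Il6, the cytokine of the acute phase response, had 39.5 in MFH1NR and 1855 in COS1NR, a log2 difference of -5.92. Il6st, its signaling receptor gp130, had 1357 in MFH1NR and 6833 in COS1NR, a log2 difference of -2.69. Osmr, which pairs with gp130, had a log2 difference of -3.22, and Il11ra1 one of 2.55 in favor of MFH1NR. In all, 6 of 15 genes of this family used were at least 2-fold higher in COS1NR and 2 in MFH1NR. With the spike-ins the counts were 5 and 4, and the median of -0.46 became 0.12. Of the genes at least 2-fold apart, 4 lay on chromosome 2, where 35.5% of genes used were at least 2-fold higher in COS1NR. The family's median was -0.36 after chromosome medians were subtracted. Of 17 complement genes used, 8 were at least 2-fold higher in COS1NR and 2 in MFH1NR, or 7 and 3 with the spike-ins. Cfd, factor D, which fat cells secrete, had 9.75 in MFH1NR and 2369 in COS1NR, at least 101-fold higher, and the protectin gene Cd59b had a log2 difference of -3.48. Nos2, the inducible nitric oxide synthase, had 8.08 in MFH1NR and 379 in COS1NR, at least 16.2-fold higher in COS1NR. Of 24 interferon-induced genes used, 3 were at least 2-fold higher in MFH1NR (12.5%) and 5 in COS1NR (20.8%), beside 12.4% and 15.0% of all genes, and these counts turned to 8 and 3 with the spike-ins. Their median was 0.09. Among antigen presentation genes B2m differed by -0.05, and the immunoproteasome subunit Psmb8 was the higher in MFH1NR with a log2 difference of 2.08.

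Of 31 PDGF, FGF, HGF and EGF family genes used, 8 were at least 2-fold higher in MFH1NR (25.8%) and 10 in COS1NR (32.3%). The shares of all genes were 12.4% and 15.0%, and the list's median was -0.24. The list's counts turned to 9 and 8 without scaling and 10 and 8 with the spike-ins. Tgfa, transforming growth factor alpha, a ligand of the EGF receptor, had 6.45 in MFH1NR and 7282 in COS1NR, at least 311-fold higher in COS1NR. Areg, amphiregulin, another ligand of that receptor, had 6.26 in MFH1NR and 2198 in COS1NR, at least 93.9-fold higher. The receptor gene Egfr itself was near background with 53.1 in MFH1NR and 45.7 in COS1NR. Fgfr2 had 159 in MFH1NR and 1923 in COS1NR, a log2 difference of -3.96 and one of -0.77 at its second probe, and Pdgfa a log2 difference of -3.0, opposite to its receptor Pdgfra. Igf2, the imprinted growth factor, had 134 in MFH1NR and 1585 in COS1NR, a log2 difference of -3.93, and Igf2r, which clears it, had 4923 in MFH1NR and 306 in COS1NR, a log2 difference of 3.65. Bdnf, a neurotrophin, had 1159 in MFH1NR and 15.7 in COS1NR, at least 30.7-fold higher in MFH1NR, with a log2 of 3.53 at its second probe. Of 19 angiogenic factors and receptors used, 10 were at least 2-fold higher in COS1NR (52.6%) and 4 in MFH1NR (21.1%). Vegfa had 803 in MFH1NR and 1301 in COS1NR, a log2 difference of -1.06, and Angptl4, a lipase inhibitor that PPARs and HIF induce, had 1553 in MFH1NR and 18032 in COS1NR, a log2 difference of -3.90. Vegfc, given above, and Angptl2, with a log2 difference of 3.17, were the reverse. Of 31 antioxidant and glutathione genes used, 11 were at least 2-fold higher in COS1NR (35.5%) and 3 in MFH1NR (9.68%). The shares of all genes were 15.0% and 12.4%, and the list's counts were 9 and 6 with the spike-ins. Of its genes at least 2-fold apart, 4 lay on chromosome 2. The list's median was -0.31, and -0.37 after chromosome medians were subtracted. Gsta1 had 2112 in MFH1NR and 28814 in COS1NR, a log2 difference of -4.13, but glutathione transferases are a family of similar copies whose probes may share signal. Sod2, the superoxide dismutase of mitochondria, had 2646 in MFH1NR and 12971 in COS1NR, a log2 difference of -2.66.

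Genes of cell division differed little. None of 31 replication licensing and fork genes used was at least 2-fold apart, beside 12.4% and 15.0% of all genes, and their log2 differences ran from -0.76 to 0.92. Of 27 mitosis genes used, only Kif23 was at least 2-fold apart, with a log2 difference of 1.35. With the spike-ins 4 of the replication genes and 5 of the mitosis genes were at least 2-fold higher in MFH1NR. Cdk1, the mitotic kinase, had 56001 in MFH1NR and 59129 in COS1NR, a log2 difference of -0.44, and Pcna, the replication clamp, had 16792 in MFH1NR and 11154 in COS1NR, a log2 difference of 0.23. With the spike-in scaling, 4 of the replication genes and 5 of the mitosis genes were at least 2-fold higher in MFH1NR. The brakes on the cycle were less alike. Cdkn2a, which encodes p16 and p19ARF, had 92000.2 in MFH1NR and 11979 in COS1NR, a log2 difference of 2.58. Its neighbor Cdkn2b had 4792 in MFH1NR and 1013 in COS1NR, a log2 difference of 1.88, and Cdkn1c one of 2.27 and 4.23 at its second probe. Rb1, the retinoblastoma protein that these inhibitors act through, had 344 in MFH1NR and 1304 in COS1NR, a log2 difference of -2.28, while its second probe was below background on both arrays. Ccnd2 had 489 in MFH1NR and 6.77 in COS1NR, at least 12.9-fold higher in MFH1NR, and Cdk4 was slightly the higher in COS1NR with a log2 difference of -0.95. The 3 CDK inhibitors at least 2-fold apart and Ccnd2 were thus higher in MFH1NR and Rb1 in COS1NR.

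Of 24 genes of the p53 response used, 1 was at least 2-fold higher in MFH1NR (4.17%) and 4 in COS1NR (16.7%), beside 12.4% and 15.0% of all genes. These counts were 3 and 3 without scaling and 5 and 3 with the spike-in shift. Cdkn1a, which encodes p21, had 3557 in MFH1NR and 3254 in COS1NR, a log2 difference of -0.23, and Mdm2 one of -0.03. Btg2, an antiproliferative target, had 646 in MFH1NR and 6531 in COS1NR, a log2 difference of -3.70. Of 32 DNA repair genes used, 2 were at least 2-fold higher in MFH1NR (6.25%) and 1 in COS1NR (3.1%). All genes stood at 12.4% and 15.0%, and with the spike-ins the list's counts were 5 and 1. The repair gene higher in COS1NR was Mgmt, which removes alkyl groups from guanine. It had 71.7 in MFH1NR and 2426 in COS1NR, a log2 difference of -5.44, while MSCs held 7648. Of 18 housekeeping genes only Pgk1 was at least 2-fold apart, and their median was -0.22, which became 0.36 with the spike-in scaling, where 3 of them were at least 2-fold higher in MFH1NR and 0 in COS1NR.

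A few germline genes were on in one line. Of 30 such genes 20 had a named probe and 7 were used, of which 5 were at least 2-fold higher in MFH1NR and 1 in COS1NR. The other 13 were below background on both arrays, and the median over all 20 was -0.34. Mael, a protein of the piRNA pathway that silences transposons, had 3394 in MFH1NR and 6.06 in COS1NR, at least 89.9-fold higher in MFH1NR. Piwil2, a Piwi protein of the same pathway, had 3010.0 in MFH1NR and 17.8 in COS1NR, at least 79.7-fold higher. Tex101 had 1071 in MFH1NR and 7.35 in COS1NR, at least 28.4-fold higher. MSCs held 3.82 for Mael, 44.1 for Piwil2 and 4.45 for Tex101. Rhox5, an X-linked homeobox gene of the testis, was bright in both, with 54333 in MFH1NR and 7054 in COS1NR and a log2 difference of 2.58. Meiob was the reverse, with 8.86 in MFH1NR and 335 in COS1NR, at least 14.3-fold higher in COS1NR. The Y-linked genes Eif2s3y and Ddx3y were well above background in COS1NR only. Eif2s3y had 6.58 in MFH1NR and 3319 in COS1NR, and Ddx3y had 6.44 in MFH1NR and 106 in COS1NR. The other 6 genes of the sex-linked list were without a named probe.

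**Figure D4:**
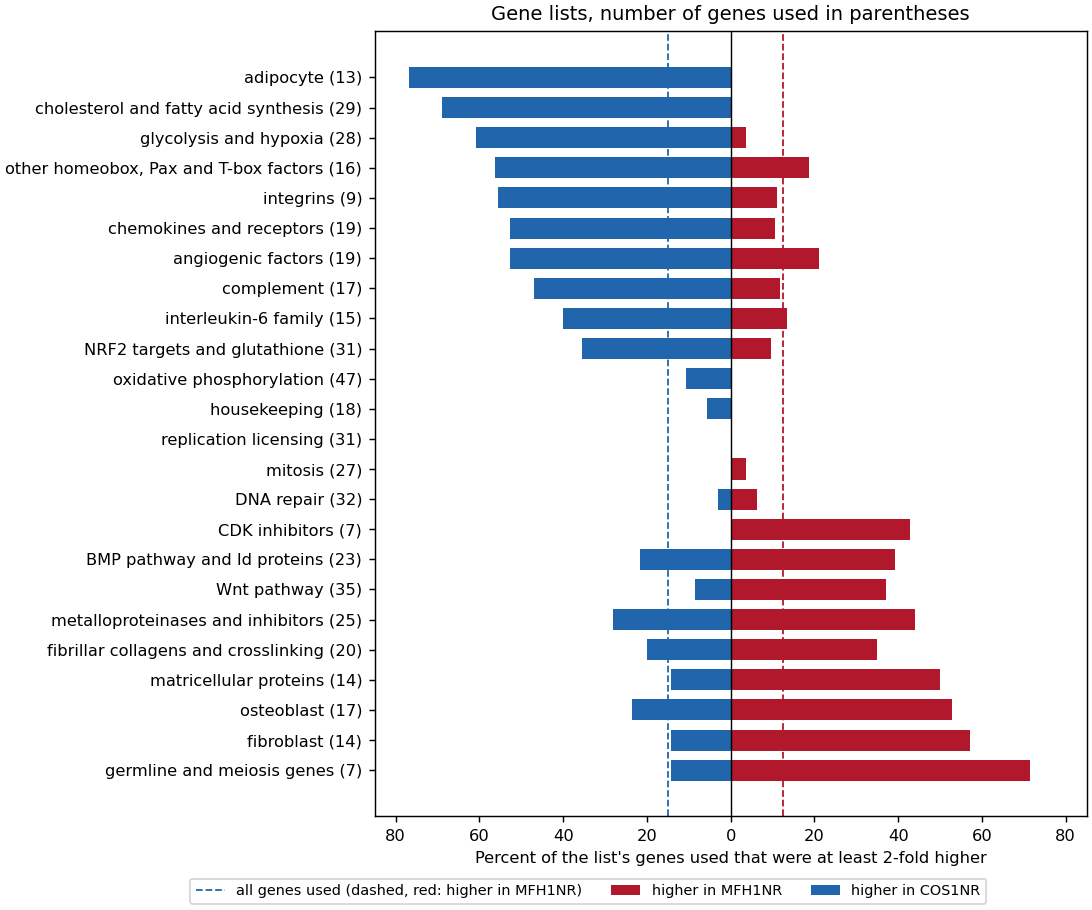
Percent of the used genes of 24 lists at least 2-fold higher in MFH1NR (red, to the right) or COS1NR (blue, to the left), with the number of genes used in parentheses and dashed lines at the shares of all genes, 12.4% and 15.0%. The adipocyte, cholesterol and hypoxia lists extend farthest to the left, fibroblast and germline lists to the right, and the replication list has no bar.

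The differences were not spread evenly over the chromosomes, which was looked at after the values were seen. Genes were put in order with a RefSeq gene table of the GRCr8 assembly, a later build than that of the array design, so only order and neighbors are used. On chromosome 2, 207 of 583 genes used (35.5%) were at least 2-fold higher in COS1NR and 59 in MFH1NR, beside 15.0% and 12.4% of all genes. Chromosome X had 89 of 267 (33.3%) and 24. On chromosome 11, 69 of 264 genes (26.1%) were at least 2-fold higher in MFH1NR and 22 in COS1NR, and on chromosome 8, 106 of 548 (19.3%) and 39. The chromosome medians ran from -0.65 on chromosome 2 to 0.38 on chromosome 8 and 0.36 on chromosome 11, leaving aside the 2 genes of chromosome Y. Relative to the median of all genes, chromosome 2 stood at -0.58, chromosome X at -0.51, chromosome 11 at 0.43 and chromosome 8 at 0.46. Across the alternatives, such relative medians of these and some other chromosomes stayed close in 82 cases and moved in 8, without a change of sign. The counts past 2-fold, here and in the blocks below, were taken under the reported scaling only. Raw log2 differences are 0.36 higher.

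Within chromosomes the shifts were regional. Blocks of 50 neighboring genes used had medians from -1.39 to 1.13, with 26 of 185 blocks at -0.5 or lower and 11 at 0.5 or higher. The lowest was the block from Apex2 to Eif2s3 on chromosome X, where 27 of 50 genes were at least 2-fold higher in COS1NR and 3 in MFH1NR. The next 3 were adjacent on chromosome 2, from Sprr3 through Pde5a, with medians of -1.05, -1.21 and -1.29. In them 29, 35 and 32 of 50 genes were at least 2-fold higher in COS1NR. The highest block was the first of chromosome 5, from Jph1 to Slc26a7, with 27 of 50 genes at least 2-fold higher in MFH1NR and 2 in COS1NR. The first pair of blocks of chromosome 11 followed, with medians of 0.78 and 0.75. Of the gene lists, the S100 and annexin list had 9 of 16 used genes on chromosome 2, and its median went from -0.72 to -0.20 when chromosome medians were subtracted. The adipocyte, chemokine and fibroblast medians were -3.39, -1.30 and 1.67 after the same step.

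**Figure D5:**
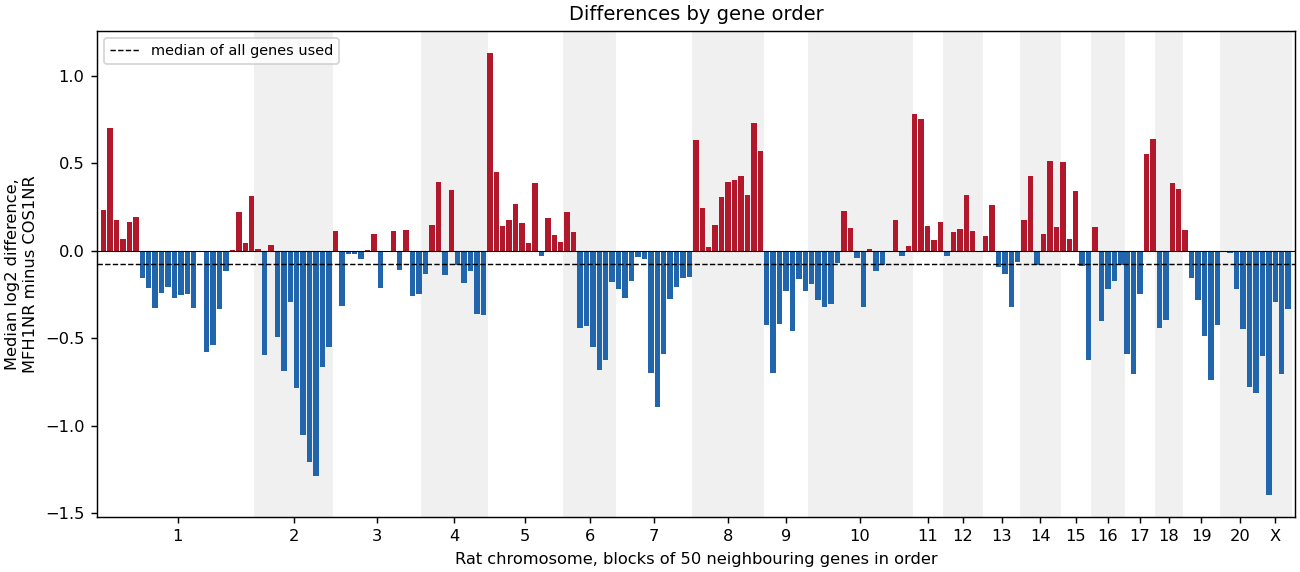
Median log2 difference (MFH1NR minus COS1NR) in 185 blocks of neighboring genes along rat chromosomes 1 to 20 and X, 50 genes a block or at least 25 at a chromosome's end, by gene order and not to physical scale. Long stretches on chromosomes 2 and X lie below the dashed median of all genes, and chromosome 8 and the starts of chromosomes 5 and 11 lie above it.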

How the data were processed

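RNA of each culture was hybridized to a single Agilent array covering the rat genome. The deposited intensities are processed signals that the authors obtained from Agilent Feature Extraction (version 9.1 in the submitters' processing notes, 10.5.1.1 in the file headers), which subtracts background within each array, and the deposited series table equals them. With 1 array per line there is no replicate error. Controls and outlier spots were left out, spots of a probe were averaged in log2, and probes were named by matching accessions to RefSeq GRCr8, which named 16745 probes. The brightest probe of a gene stood for it. Genes named are the 12 largest measured differences and 8 largest bounds in each direction, and marked or large members of 61 gene lists, of which 58 had enough genes for a median. Members and lists were chosen with earlier results of these data known. No test was run. Alternatives were 4 scalings, other probes, filters and thresholds, and, chosen after seeing the data, limma normexp on the median spot signal, the subtraction of chromosome medians and all alternatives for chromosome medians. Motifs were searched on both strands in the first RefSeq promoter of each symbol. Python 3.11.15, numpy 2.4.6, pandas 2.3.3, scipy 1.17.1, R 4.3.3 and limma 3.58.1 were used, and the scripts were tested on simulated data. Some genes are not reported here.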

Additional observations from a re-analysis of the deposited data

How the results depend on the processing

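With 1 array per line, no statement above carries a replicate error, and the values cannot tell a line from its culture. Probes near background give bounds only. No paired analysis was possible because each line has 1 array. At least 2-fold higher genes in MFH1NR numbered 1873 without scaling, 2492 with the spike-in shift, 253 of 2227 genes by their second brightest probe and 685 at 3-fold, and in COS1NR they numbered 797, 309 and 791 under the last 3 of these. Probes numbered 4968 and 2264 without scaling, 1708 and 1817 at 3-fold, and 1995 for MFH1NR where both arrays had to be above background. The correlation across genes was 0.886 after normexp, 0.915 for genes above background on both arrays and 0.920 without a filter. Apart from the scalings, list medians of at least 1 in size changed sign in 6 cases. Without the filter these were germline genes at -0.34, osteoblast genes at -0.15 and small leucine-rich proteoglycans at -0.058, the last also at -0.41 as a mean. By the second brightest probe they were matricellular proteins at -0.48 and homeobox factors at 0.23. Smaller medians changed sign more often, as for ion channels at -0.34, BMP genes at -0.0084 and skeletal muscle genes at -0.36 without the filter and metalloproteinases at -0.062 by the second probe. For 25 of 63 genes named that have a second probe, it moved the value by more than 0.60. It had the other sign in 4 of the 63, none of them among the 25. The cause was not tested. Naming by accession only was not run, because the files used here hold no gene name column and all names already came from accessions. Normexp on the mean spot signal was not run, because that column was not in the files used here, and the median spot signal took its place.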

Other observations

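Among genes not described above, Nes, an intermediate filament of progenitor cells, was the higher in MFH1NR with a log2 difference of 3.30, and Des and Synm, filament proteins of muscle, were the higher in COS1NR with -2.78 and -4.94. Mcam, the surface antigen CD146 of pericytes, had 5672 in MFH1NR and 101 in COS1NR, with log2 differences of 5.45 and, at its second probe, 3.68. Of 24 interferon-induced genes used, Usp18 and Ifi44l had log2 differences of 3.65 and 3.33 while Oasl had -4.24, so single genes of this list stood far apart in opposite directions.

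Some differences ran through neighboring genes. Of all genes used, in GRCr8 order, 113 lay in 14 runs of at least 6 neighbors at least 2-fold higher in the same line, 5 runs in MFH1NR and 9 in COS1NR. The longest was one of 16 genes on chromosome 5 from Pdp1 to Coq3, with log2 differences from 1.5 to 3.74 in favor of MFH1NR. On chromosome 2 the 13 genes from Ap4b1 to Chia were higher in COS1NR, with log2 differences from -1.83 to -1.06. Runs were counted under the reported scaling only. Raw log2 differences are 0.36 higher, so this run, with several members near -1, rests on that scaling. A run of 9 genes on chromosome X from Gprasp1 to Bex3 was higher in COS1NR. Runs of Gstm and Akr1c genes hold near-identical copies whose probes may share signal, so their length is uncertain.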
